A study of Mus musculus with 8 samples.

Results

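The interaction of trimethylamine N-oxide (TMAO) with tumour necrosis factor α (TNF-α) was measured gene by gene as a log2 difference of differences: the change from TNF-α alone to both agents, minus the change from untreated cells to TMAO alone. A value of 0 means that the agents multiplied each other's effects, a positive value that TMAO left the gene higher, relative to its partner group, when TNF-α was present, and a negative value the opposite. All 8 libraries of the series entered this contrast, and 15613 of the 54446 listed genes had enough counts to be tested. The cells were Hepa1-6, a mouse hepatoma line given as of C57BL/6 origin, grown in DMEM with 10% fetal bovine serum. Of the 4 groups, each of 2 libraries, the first was untreated, the second received TMAO at 50 µM, the third TNF-α at 50 ng/ml and the fourth both agents at these doses, and treated cells were exposed for 24 h. In the label that lists the combined treatment TMAO appears in place of TNF-α, and the group was taken from its titles. Each agent was given at 1 dose and 1 time in 1 tumour line, and the labels do not say whether the 2 libraries of a group, numbered 14 and 16, came from separate cultures, so p-values capture no more than library-to-library spread, possibly of technical origin. In such bulk samples fewer cells and less RNA per cell cannot be told apart.

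TNF-α binds receptors on the cell surface and activates the transcription factor NF-κB, which raises chemokines, adhesion molecules and its own inhibitors. TMAO is an oxidised amine formed in the liver by flavin monooxygenases from trimethylamine that gut bacteria release from dietary choline and carnitine. Hypoxia-inducible factors (HIF) are transcription factors whose α subunits are marked for destruction by oxygen-dependent prolyl hydroxylases (the Egln enzymes) and which raise genes of glycolysis, mitophagy and blood vessel growth.

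Total counts ran from 24736746 to 30488605 per library, so that 3 counts corresponded to 0.0984 to 0.121 CPM (counts per 1000000 counts of the library, after scaling). One library stood apart. Over 12368 genes the log2 differences within a group had an SD of 0.69 for TNF-α, against 0.18 to 0.25 in the other 3 groups. TNF-α 16 had a median correlation of 0.968 with the other libraries, which had 0.981 to 0.983, and control 14 departed in the same direction to a smaller extent. The interaction rests on these libraries: with TNF-α 16 as the only TNF-α library 5788 genes passed the test, and with TNF-α 14 as the only one 0 did, with 421 (2.57%) at an unadjusted p below 0.05. Many results below are therefore given both for all 8 libraries and without TNF-α 16 and control 14. Values for which no fit is named come from all 8 libraries only, and some of them depend on TNF-α 16. The choice of these 2 libraries was made after the values were seen, and in the second fit the lone control and TNF-α libraries are assumed to vary like the other groups.

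No gene passed the test for a departure from multiplicative effects, after adjustment over all genes, when all 8 libraries were used. In edgeR's quasi-likelihood test 0 of 15613 genes (0%) had an adjusted p below 0.05, with the smallest adjusted p at 0.953. At an unadjusted p below 0.05 there were 98 genes with a positive interaction (0.628%) and 86 with a negative one (0.551%), DESeq2 and limma-voom also called 0, with 71 and 171 genes at an unadjusted p below 0.05, and 754 genes (4.83%) were positive and 735 (4.71%) negative whichever library was taken from each group. Fewer genes lay under an unadjusted p of 0.05 than that threshold alone would give, so the test was conservative here. The absence of calls did not come with narrow intervals for every gene. For the 8990 genes averaging 10 CPM or more, the 95% interval reached a median of 0.50 to either side on the log2 scale, and 7031 of them (78.2%) had an interval that lay wholly within a 2-fold departure in either direction. Without TNF-α 16 and control 14 this median was 0.17 and 1 gene of 16245 (0.00616%) passed, Bnip3. For the genes below, the adjusted p of the interaction with all 8 libraries was 0.953 or higher, so their values are given with SE and 95% interval as a description.

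Bnip3, a mitochondrial outer membrane protein that promotes mitophagy and a known HIF target, had the smallest p of all genes. Its level was 16.9 and 17.5 CPM in control, 6.59 and 6.76 with TMAO, 21.3 and 24.9 with TNF-α, and 15.8 and 15.9 CPM with both. The TMAO libraries were thus the lowest, while the combined libraries lay just below control, and no 2 groups overlapped. Mean Bnip3 stood 61.2% lower with TMAO than in control and 31.3% lower with both agents than with TNF-α. The interaction was 0.82 ± 0.17 on the log2 scale (± SE), with a 95% interval of 0.43 to 1.22 (adjusted p = 0.953). Without TNF-α 16 and control 14 it was 0.98 ± 0.16 with an adjusted p of 0.0022, the TMAO effect being -1.40 without TNF-α (adjusted p = 6.37e-12) and -0.43 with it (adjusted p = 0.123). Over the 18 other settings the value stayed between 0.74 and 0.98, and its adjusted p between 0.00146 (without TNF-α 14) and 1.

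**Figure D1:**
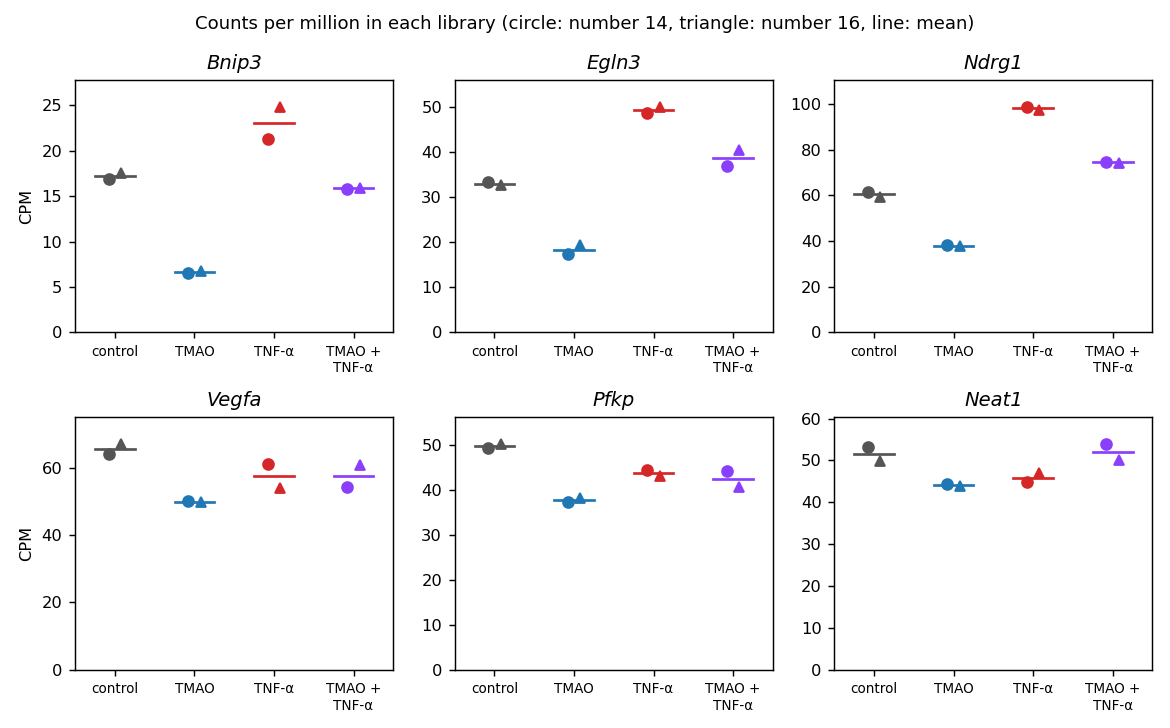
CPM (vertical axes, from 0) of 6 genes in each of the 8 libraries by group, with circles for libraries numbered 14, triangles for 16 and lines for group means. Bnip3 and Egln3 drop from control to TMAO by a larger proportion than from TNF-α to both agents, and the TMAO libraries are the lowest in all 6 plots.

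The sequence upstream of Bnip3, Egln3 and the glycolytic gene Pfkp is shown because HIF binds DNA at the core motif RCGTG and these 3 genes had positive interactions at p below 0.05. Other genes had larger values than Pfkp, among them Vegfa, which is not printed and held 0 matches in its first window and 2 in its second. The motif was searched as ACGTG and as GCGTG on both strands in the 250 bases before each start of transcription in RefSeq (build GRCm38.p6, while the submitters' processing notes name mm9), and capitals mark each match, including CACGT and CACGC, which are the same motifs on the other strand.
Bnip3 (chr7:138909507-138909756, minus strand): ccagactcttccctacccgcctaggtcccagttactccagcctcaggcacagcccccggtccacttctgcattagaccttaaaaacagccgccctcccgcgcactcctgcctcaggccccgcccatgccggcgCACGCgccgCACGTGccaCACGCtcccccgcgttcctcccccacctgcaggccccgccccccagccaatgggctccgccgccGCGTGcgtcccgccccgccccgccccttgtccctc
Egln3 (chr12:54203875-54204124, minus strand): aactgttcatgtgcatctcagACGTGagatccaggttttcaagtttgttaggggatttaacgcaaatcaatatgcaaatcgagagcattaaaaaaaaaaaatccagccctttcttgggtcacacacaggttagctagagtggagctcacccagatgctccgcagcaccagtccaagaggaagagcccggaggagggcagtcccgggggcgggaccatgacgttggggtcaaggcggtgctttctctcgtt
Pfkp (chr13:6648772-6649021, minus strand): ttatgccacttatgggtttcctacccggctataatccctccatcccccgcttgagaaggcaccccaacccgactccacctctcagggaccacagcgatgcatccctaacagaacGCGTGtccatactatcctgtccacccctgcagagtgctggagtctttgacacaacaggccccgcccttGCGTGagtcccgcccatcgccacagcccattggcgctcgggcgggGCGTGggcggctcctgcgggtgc
Bnip3 has 2 matches to ACGTG, which overlap as the palindrome CACGTG, and 3 to GCGTG. Egln3 has 1 match to ACGTG, and Pfkp has 3 to GCGTG. Among list genes not printed, Fam162a held 6 matches, the first Ldha window 5, and Ankrd37 and Slc16a1 4 each. With all 8 libraries the interactions of Fam162a and Ldha were negative, but without TNF-α 16 they were 0.24 and 0.11. That of Ankrd37 was positive in all 18 other settings. Whether the number of matches follows the interaction was not tested. Of 57 windows for 39 of the 44 tested genes of the HIF target and glycolysis lists, 44 (77.2%) held either motif, against 38.6% of all 32851 windows, and 28 (49.1%) held ACGTG, against 16.6%. The list windows and all windows were not matched for base composition or expression. A match is a description of these letters, and binding was not measured.

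Egln3, a prolyl hydroxylase that marks HIF for destruction and is itself a HIF target, followed Bnip3. Its level was 33.3 and 32.6 CPM in control, 17.4 and 19.3 with TMAO, 48.6 and 50.0 with TNF-α, and 36.8 and 40.4 CPM with both. It stood 44.4% lower with TMAO than in control and 21.6% lower with both than with TNF-α. The interaction was 0.50 ± 0.15 (interval 0.14 to 0.85), and 0.51 without the 2 libraries (adjusted p = 0.108). Vegfa, the main growth factor for blood vessels, was at 64.1 and 67.0 CPM in control, 50.0 and 49.7 with TMAO, 61.0 and 53.9 with TNF-α, and 54.3 and 60.8 CPM with both. The TMAO libraries were below control, whereas the combined libraries overlapped those of TNF-α. The interaction of Vegfa was 0.40 ± 0.16 (interval 0.03 to 0.76), and 0.35 without the 2 libraries (adjusted p = 0.234).

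For Ndrg1, a stress-responsive gene raised by hypoxia, the answer depended on the scale. Its level was 61.5 and 59.4 CPM in control, 38.1 and 37.6 with TMAO, 98.7 and 97.3 with TNF-α, and 74.8 and 74.2 CPM with both, 4 groups that did not overlap. As a proportion the drop was 37.3% without TNF-α and 24.0% with it, an interaction of 0.28 ± 0.12 (interval -0.02 to 0.57). As a difference in level it was -22.6 CPM without TNF-α and -23.5 CPM with it, so the departure on the linear scale was -0.98 CPM. Kctd11, an adaptor of a ubiquitin ligase and among the genes of smallest p for TMAO averaged over TNF-α, showed the same contrast of scales, with an interaction of 0.21 ± 0.16 and a linear departure of -2.95 CPM. For Bnip3 and Egln3 both scales gave a positive sign, at 3.30 and 3.99 CPM.

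Across the list of HIF targets outside glycolysis, 19 of 23 genes were tested, and the other 4 (Adm, Car12, Plod2 and Stc2) had at most 8 counts in a library. With all libraries 3 of the 19 had a positive interaction at p below 0.05 (Bnip3, Egln3 and Vegfa) and 0 a negative one, against 0.628% and 0.551% of all genes. There 12 were above 0 (7633 of 15613 for all genes), and the median was 0.10, against -0.01 for all genes tested. Without the 2 libraries 10 of the 19 were positive at p below 0.05 and 0 negative, against 2.81% and 2.72% of all genes, and the median was 0.17. These 10 were Ankrd37, Bnip3, the related mitophagy receptor Bnip3l, the mTOR inhibitor Ddit4, Egln3, the histone demethylase Kdm3a, Ndrg1, the collagen prolyl hydroxylases P4ha1 and P4ha2, and Vegfa. Ankrd37, a small ankyrin repeat protein, had the largest value among them, 1.5, but with all libraries its value was 0.69 ± 0.58, and TNF-α 16 held 3.18 CPM where TNF-α 14 held 1.39. With all libraries the extremes of the list were Car9, a carbonic anhydrase (interval -1.09 to 3.32), and Loxl2, a collagen cross-linking enzyme (interval -3.76 to 1.75), both below 1 CPM in every library. Among the members near 0 without the 2 libraries were Higd1a (0.01), Anxa2 (0.01) and Egln1 (-0.01). The list was chosen with earlier results of these data known, and the change with TMAO alone enters the interaction with a minus sign. A list picked for genes that TMAO lowered would thus lean to positive values. All 19 genes also share the same libraries, with a lone control and a lone TNF-α library in the second fit. Counts of members are therefore a description.

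The simple effects that make up these values also depended on the 2 libraries. With all 8, TMAO lowered 0 genes (0%) in either setting, and the list's median log2 fold change with TMAO was -0.30 without TNF-α and -0.35 with it. Without the 2 libraries TMAO lowered 44 genes (0.271%) in the absence of TNF-α and 8 (0.0492%) in its presence, and raised 4 (0.0246%) in each. In that fit the HIF target list had medians of -0.36 in the absence of TNF-α and -0.19 in its presence. The list of glycolysis, glucose uptake and lactate had medians of -0.16 and -0.10. A smaller drop in the presence of TNF-α was thus not particular to the HIF targets outside glycolysis. A gene that passed in one setting only is not thereby shown to differ between them, since in the test of the difference Bnip3 alone passed. TNF-α, averaged over TMAO, raised 7 of the 19 (5.35% of all genes rose), namely Bnip3, Egln3, Ndrg1, Ddit4, P4ha2, Ero1l and the Myc antagonist Mxi1, and lowered 0.

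**Figure D2:**
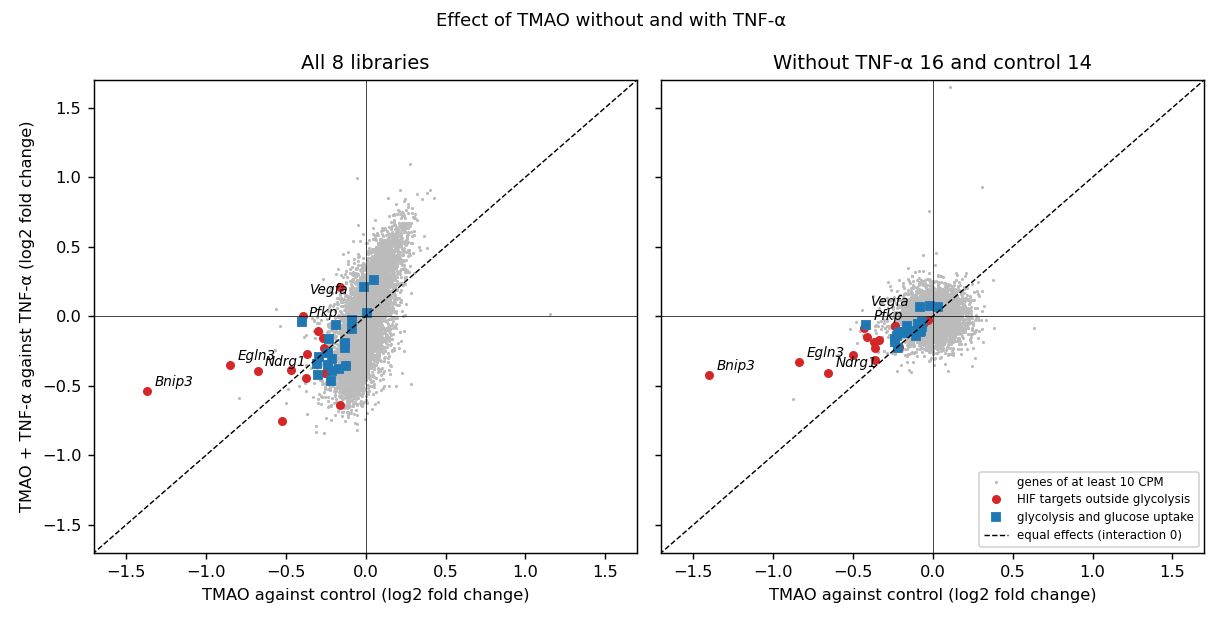
Log2 fold change with TMAO in the absence (horizontal) and presence (vertical) of TNF-α for the 8990 genes of at least 10 CPM, with HIF targets as red circles, glycolysis genes as blue squares and a dashed line where the interaction is 0. Bnip3, Egln3, Ndrg1, Vegfa and Pfkp lie above the line in both panels, and the grey points lie closer to the line without TNF-α 16 and control 14, where the SD of the interaction is 0.12 against 0.22 with all 8 libraries (1 gene, Rn7sk, lies outside the frame there).

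Genes of glycolysis and glucose uptake gave smaller values. All 25 listed genes were tested, and with all libraries 11 were above 0 (7633 of 15613 for all genes), with a median of -0.03. At p below 0.05, 1 was positive and 0 negative, against 0.628% and 0.551% of all genes. Pfkp, the platelet-type phosphofructokinase of an early committed step, was that gene. It had 49.5 and 50.3 CPM in control, 37.3 and 38.4 with TMAO, 44.6 and 43.2 with TNF-α, and 44.3 and 40.8 CPM with both, so that the TMAO libraries were the lowest and the TNF-α and combined libraries overlapped. The interaction of Pfkp was 0.35 ± 0.14 (interval 0.03 to 0.68), and 0.35 without the 2 libraries. There 18 of the 25 were above 0 and 4 positive at p below 0.05 (Pfkp, Gapdh, Pgk1 and Tpi1), with a median of 0.05. Of all genes 7857 of 15595 were above 0 in that fit and 2.81% positive at p below 0.05. With all libraries Gapdh, Pgk1 and Tpi1 went the other way. TMAO lowered them by 19.1%, 21.6% and 25.5% with TNF-α, and by 13.5%, 15% and 18.6% without it. Without TNF-α 14 their interactions were -0.27, -0.29 and -0.34, so their sign depended on the libraries used. Pfkp stayed between 0.31 and 0.83 over the other settings. The glucose transporter Slc2a1 did not share the pattern of Pfkp. It had 125.7 and 110.7 CPM in control, 97.9 and 93.9 with TMAO, 128.2 and 149.4 with TNF-α, and 108.3 and 110.6 CPM with both, drops of 18.9% and 21.1%, with an interaction of -0.04 ± 0.17. The lactate transporter Slc16a1 was at 171.6 to 186.6 CPM throughout, with an interaction of 0.02 ± 0.13. Among HIF's own genes, of 10 tested subunits and regulators, Egln3 was the only one at p below 0.05, against 0.628% (positive) and 0.551% (negative) of all genes. Egln3 is also a member of the HIF target list, so it is no further result. The median was 0.09, or -0.03 without the 2 libraries. Hif1a, which encodes the main α subunit, had 0.10 ± 0.21.

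Genes that responded to TNF-α were taken from its effect averaged over TMAO. In this balanced layout that contrast is orthogonal to the interaction only if all groups vary equally. They did not, as the SD of log2 differences within a group was 0.69 for TNF-α, against 0.18 to 0.25 elsewhere. The choice of genes was therefore not independent of their interactions, and the values below are a description. TNF-α raised 835 genes (5.35%) and lowered 602 (3.86%). Among the raised genes the median interaction was -0.01 and among the lowered genes 0.02, against -0.01 for all genes. The raised genes had 10 positive and 10 negative interactions at p below 0.05, and the lowered genes 4 and 4. All genes tested had 98 (0.628%) and 86 (0.551%). The 95% interval lay within 2-fold for 517 of the 826 raised genes and 413 of the 597 lowered ones that had an interval. Without the 2 libraries the medians were 0.01 and 0.00.

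The 10 genes of smallest p for TNF-α had interactions between -0.22 and 0.24, each with an interval that included 0. Pglyrp2, a secreted amidase that cleaves bacterial peptidoglycan, was at 2.06 and 1.69 CPM in control, 1.30 and 1.59 with TMAO, 52.6 and 57.9 with TNF-α, and 49.5 and 51.2 CPM with both. The log2 rise with TNF-α was 4.88 without TMAO (adjusted p = 0.000166) and 5.12 with it (adjusted p = 0.000141), an interaction of 0.24 ± 0.22. Vcam1, an adhesion molecule for leukocytes, was at 54.7 and 58.7 CPM in control, 55.7 and 54.9 with TMAO, 257.5 and 236.4 with TNF-α, and 256.4 and 250.8 CPM with both. TNF-α raised it by 2.12 (adjusted p = 0.000385) and by 2.20 (adjusted p = 0.000392), and the interaction was 0.07 ± 0.14 with an interval of -0.26 to 0.41. Among the lowered genes, Cyp1a1, a cytochrome P450 induced through the Ah receptor, had an interaction of -0.02 ± 0.13, and Ccn2, a matrix protein that YAP and TGF-β induce, had 0.02 ± 0.17. For both genes the 4 libraries with TNF-α lay between 19.9 and 38.3 CPM, and the 4 without it between 103.8 and 120.9 CPM. H2-Q1, a class I histocompatibility gene, fell by 3.24 without TMAO and by 3.29 with it. It belongs to a family of similar copies, so its counts are uncertain.

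**Figure D3:**
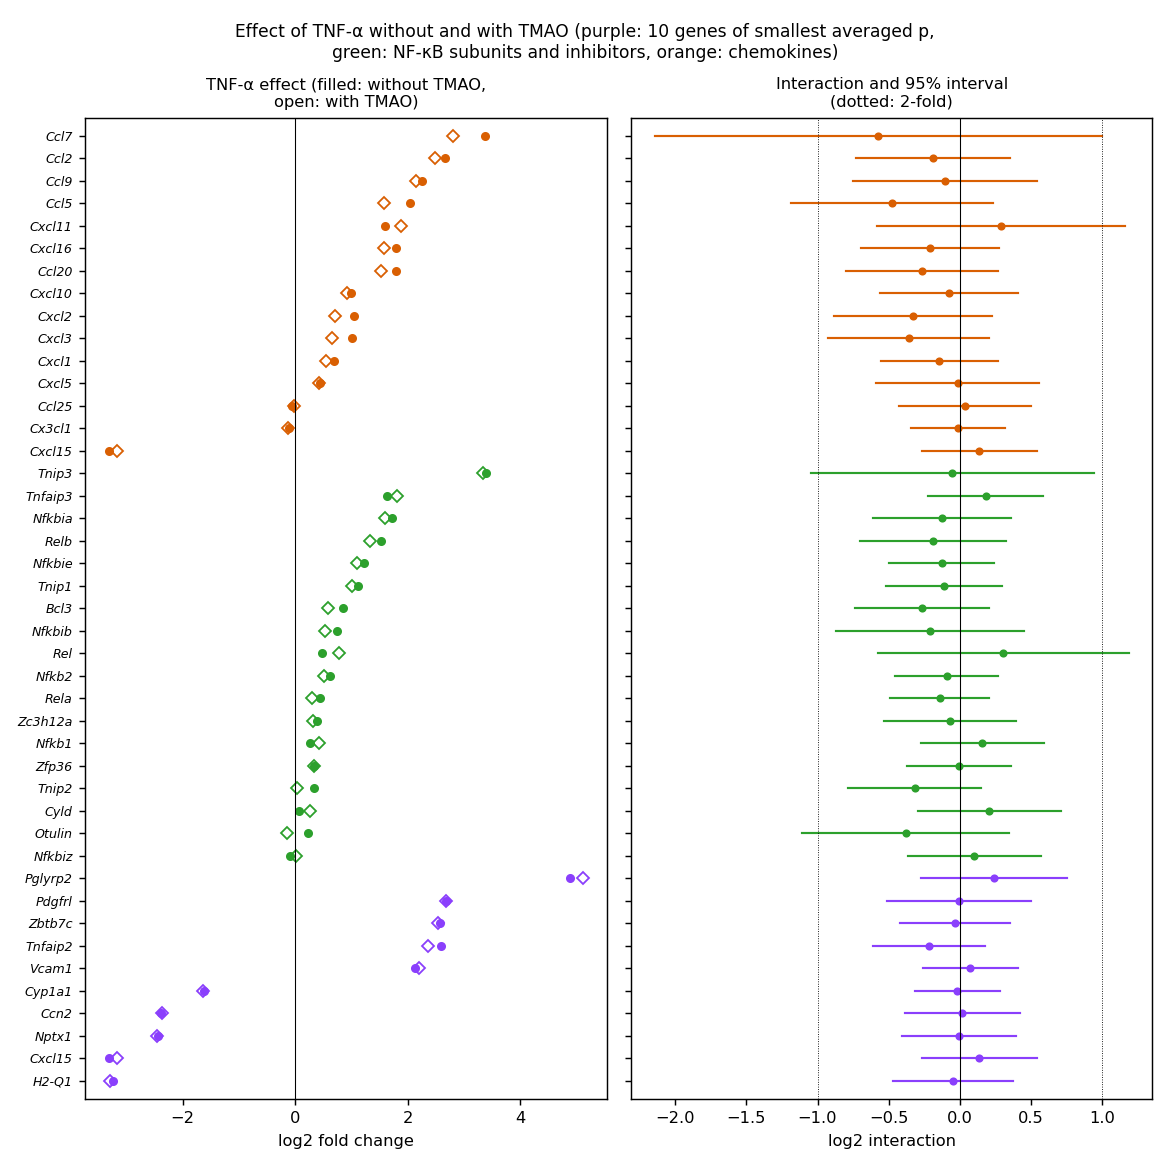
Log2 fold change with TNF-α without (filled) and with (open) TMAO in the left panel, and the interaction with its 95% interval in the right panel, for the 10 genes of smallest averaged p, the NF-κB list and the chemokine list. Every interval includes 0, and those of Tnip3, Rel, Otulin, Ccl7, Ccl5 and Cxcl11 reach beyond a 2-fold departure.

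Upstream, the 22 TNF receptors and adaptors, all tested, had a median interaction of 0.02, with 21 intervals within 2-fold. Without the 2 libraries the median was -0.001. At p below 0.05 there were 0 with all 8 libraries, against 0.628% (positive) and 0.551% (negative) of all genes. The test was conservative in that fit, so 0 in 22 is no result about this list. Traf1, an adaptor that NF-κB raises, stood at 19.5 and 19.4 CPM in control, 17.4 and 16.5 with TMAO, 107.0 and 156.2 with TNF-α, and 111.5 and 106.8 CPM with both. Its interaction was -0.07 ± 0.25, and 0.23 without the 2 libraries (adjusted p = 0.848), where TNF-α 14 is the only TNF-α library. The ligand's main receptor gene, Tnfrsf1a, had an interaction of -0.12 ± 0.17.

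All 18 NF-κB subunits and feedback inhibitors were tested. TNF-α, averaged over TMAO, raised 11 of them and lowered 0, against 5.35% and 3.86% of all genes. At p below 0.05, 0 had an interaction, against 0.628% (positive) and 0.551% (negative) of all genes, so 0 in 18 is no result about this list. The list's median interaction was -0.10, and -0.02 without the 2 libraries. Nfkbia, the inhibitor that holds NF-κB in the cytoplasm, was at 71.8 and 60.6 CPM in control, 60.1 and 62.9 with TMAO, 191.8 and 244.0 with TNF-α, and 185.1 and 186.5 CPM with both. The combined libraries lay just below the lower TNF-α library, and the interaction was -0.12 ± 0.20, or -0.06 without the 2 libraries. Tnfaip3, the ubiquitin-editing inhibitor A20, was at 69.0 and 71.2 CPM in control, 68.0 and 67.0 with TMAO, 239.5 and 194.4 with TNF-α, and 239.2 and 235.1 CPM with both, an interaction of 0.18 ± 0.17. Leaving out TNF-α 16 gave Tnfaip3 an interaction of 0.04. Without the 2 libraries the subunit Relb had an interaction of 0.00 and the inhibitor Tnip3 one of 0.41, each short of the test.

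Of 19 chemokines 15 were tested, and Ccl3, Ccl4, Cxcl9 and Cxcl12 had at most 3 counts in a library. TNF-α, averaged over TMAO, raised 11 and lowered 1, Cxcl15, against 5.35% and 3.86% of all genes. With all libraries 12 of the 15 interactions were below 0 (7980 of 15613 for all genes), with a median of -0.14. At p below 0.05 there were 0 in that fit, against 0.628% (positive) and 0.551% (negative) of all genes, so 0 in 15 is no result about this list. In 13 of the 15 genes TNF-α 16 was above TNF-α 14, and without it and control 14 the median was -0.04. Ccl2, which attracts monocytes, was at 194.8 and 163.9 CPM in control, 167.4 and 164.5 with TMAO, 990.5 and 1284 with TNF-α, and 896.8 and 951.1 CPM with both. The combined libraries were below both TNF-α libraries, and the interaction was -0.19 ± 0.23 (interval -0.73 to 0.35). It was -0.11 without the 2 libraries (adjusted p = 0.853). Cxcl10, which attracts T cells, was at 112.7 and 106.5 CPM in control, 102.2 and 103.6 with TMAO, 186.9 and 250.5 with TNF-α, and 195.8 and 193.8 CPM with both. Its combined libraries lay between those of TNF-α, and its interaction was -0.08 ± 0.21, and 0.12 without the 2 libraries (adjusted p = 0.887). Ccl5 had the lowest p of the list, with an interaction of -0.48 ± 0.30 and 71.5 CPM in TNF-α 16 against 44.7 in TNF-α 14.

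Adhesion and immune surface molecules gave the same count. Of 12 tested genes TNF-α raised 10 (5.35% of all genes rose), and the median interaction was -0.08. At p below 0.05, 0 had an interaction, against 0.628% (positive) and 0.551% (negative) of all genes. Icam1, a ligand of leukocyte integrins, was at 96.6 to 100.9 CPM in the 4 libraries without TNF-α and at 198.1 to 216.8 CPM in the 4 with it, an interaction of -0.05 ± 0.13. Of 26 interferon-stimulated genes 9 rose with TNF-α (5.35% of all genes did) and 13 had interactions above 0 (7633 of 15613 for all genes). Ifit3, an antiviral protein that binds foreign RNA, was at 0.62 ± 0.26.

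In the list of PERK-ATF4 and amino acid response genes all 23 were tested, with a median of -0.13, or -0.03 without the 2 libraries. At p below 0.05 there were 0, against 0.628% (positive) and 0.551% (negative) of all genes. These genes are raised by the integrated stress response. Atf4, its transcription factor, was at 276.6 and 249.7 CPM in control, 254.2 and 261.1 with TMAO, 233.1 and 362.6 with TNF-α, and 233.9 and 234.5 CPM with both, with an interaction of -0.32 ± 0.28 that was -0.03 without the 2 libraries. TNF-α 16 was thus far above the other 7 libraries. Ddit3, the pro-apoptotic factor CHOP, followed at -0.61 ± 0.34, with 20.6 CPM in TNF-α 16 and 10.9 to 15.0 CPM in the other 7. Leaving out TNF-α 16 gave Ddit3 an interaction of -0.16. Of the flavin monooxygenase and choline metabolism genes 11 of 18 were tested. Pemt, which makes phosphatidylcholine, had the smallest p of that list, with an interaction of -0.45 ± 0.26. Hepatocyte transcription factors had a median of 0.07 with all libraries and of -0.06 without the 2, where 5 of 17 were negative at p below 0.05, against 2.72% of all genes. One of them was Cebpb, a regulator of acute phase genes, at -0.61 ± 0.32 with all libraries and -0.60 without the 2 (adjusted p = 0.635).

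All 42 tested cytosolic ribosomal protein genes had negative interactions (7980 of 15613 for all genes), with a median of -0.39. At p below 0.05 the ribosomal count was 0, against 0.628% (positive) and 0.551% (negative) of all genes. Their mean log2 CPM was 10.00 in TNF-α 16, 9.41 in control 14 and 9.12 to 9.22 in the other 6 libraries. Without TNF-α 16 the median was 0.11, and without both libraries it was 0.01, with 23 of 42 above 0 (7857 of 15595 for all genes). Rpl27, for example, was at 988.9 CPM in TNF-α 16, at 639.3 in control 14 and at 517.5 to 574.9 CPM elsewhere. The 34 nuclear genes of the respiratory chain and ATP synthase had similar values, with a median of -0.37, and of -0.02 without the 2 libraries. Their mean log2 CPM was 6.90 in TNF-α 16, 6.44 in control 14 and 6.13 to 6.26 elsewhere. Long nuclear-retained and intron-rich transcripts went the other way, as TNF-α 16 averaged 5.98 on the log2 CPM scale where the other 7 libraries averaged 6.49 to 6.86. All 6 tested members had interactions above 0 (7633 of 15613 for all genes), with a median of 0.31, or 0.07 without the 2 libraries. TNF-α 16 also had the fewest genes with a count, 20815, against 22253 to 22917 in the other 7 libraries. The part of these 2 libraries' shared departure in the other lists was not tested beyond leaving them out. The 13 genes encoded in mitochondrial DNA had a median of 0.01 in both fits.

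**Figure D4:**
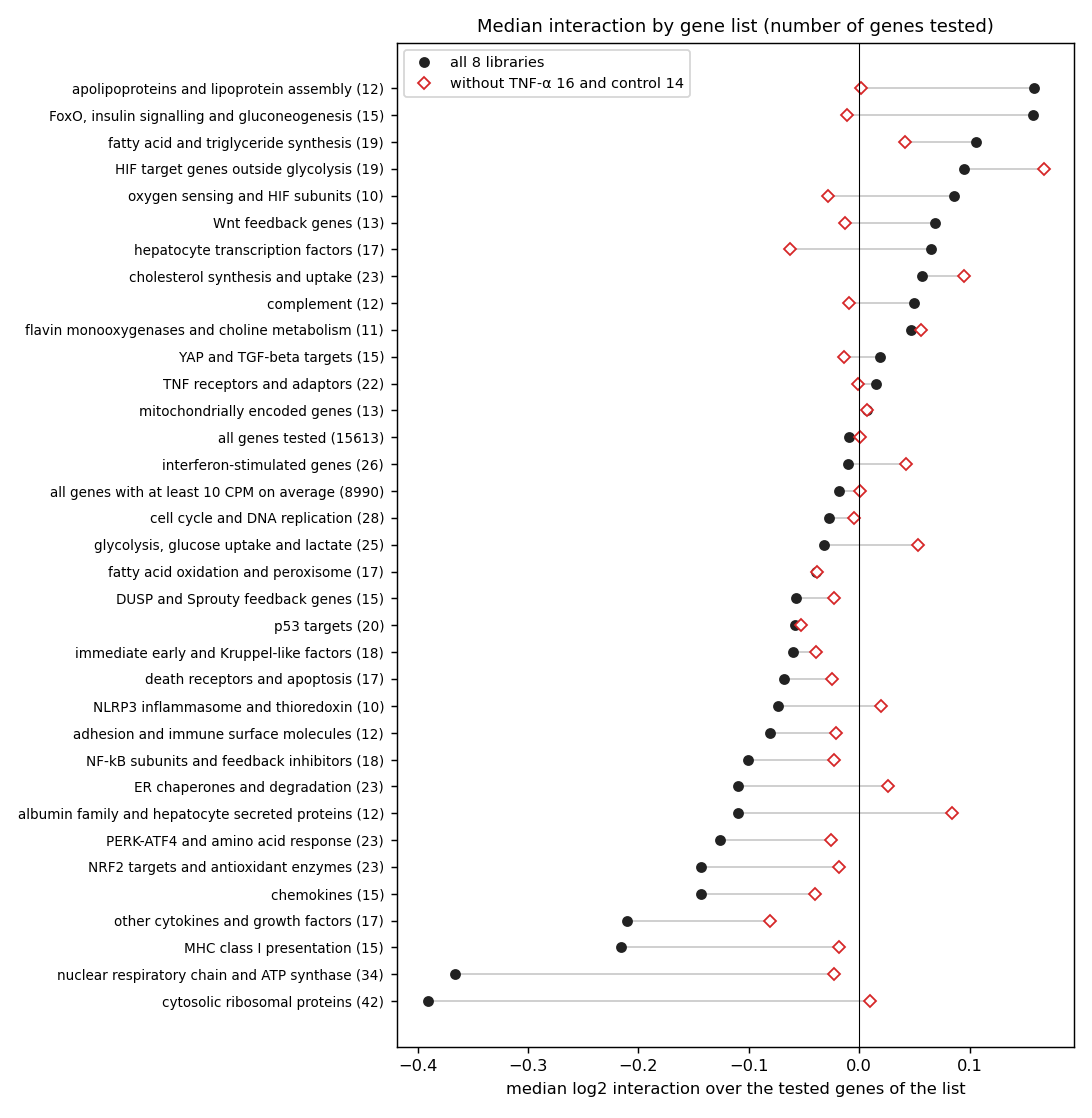
Median log2 interaction (horizontal axis) of each gene list with at least 10 tested genes, with filled circles for all 8 libraries and open diamonds for the fit without TNF-α 16 and control 14. Ribosomal and respiratory chain genes are lowest with all 8 libraries and near 0 without the 2, while the HIF targets have the highest median without them, 0.17.

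Over all genes, whether in a list or not, those with the smallest p and the same sign for all 16 choices of 1 library per group were taken in each direction. The 12 positive ones were Bnip3, Cmya5, Ido2, Tfap2a, Egln3, Unc13a, Ptgr2, Neat1, Ammecr1, Cdh1, Diablo and Tas1r3. Neat1, the long RNA that builds nuclear paraspeckles, was at 53.2 and 49.9 CPM in control, 44.4 and 43.9 with TMAO, 44.9 and 47.0 with TNF-α, and 53.9 and 50.2 CPM with both. Either agent alone thus left it below control, and the combined libraries were level with control. Its interaction was 0.40 ± 0.14 (interval 0.08 to 0.73), and 0.40 without the 2 libraries (adjusted p = 0.108). Unc13a, which primes synaptic vesicles, was at 16.4 and 15.3 CPM in control, 10.9 and 10.6 with TMAO, 15.8 and 12.7 with TNF-α, and 13.9 and 15.6 CPM with both. The interaction of Unc13a was 0.61 ± 0.20, and 0.43 without the 2 libraries. Ido2, an enzyme that degrades tryptophan, was at 1.08 and 0.90 CPM in control, 0.42 and 0.46 with TMAO, 4.07 and 3.97 with TNF-α, and 4.35 and 3.58 CPM with both. Its interaction was 1.13 ± 0.33 (interval 0.36 to 1.91), and 0.98 without the 2 libraries. The TMAO libraries were the lowest, while the TNF-α and combined libraries overlapped. Ptgr2, a reductase of prostaglandins, had 0.45 ± 0.15 (interval 0.10 to 0.81), and Diablo, a mitochondrial activator of caspases, 0.72 ± 0.25 (interval 0.12 to 1.32). Cmya5, Tfap2a, Ammecr1 and Cdh1 were below 1.2 CPM in every library, and Cmya5, with 0.08 CPM in TNF-α 16, was there under the level that 3 counts give.

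The 12 negative genes were Lingo1, Crnde, Sh2d1b1, Xndc1, Faddos, Runx1, Plekha4, H2-DMa, Klf2, Ttc32, Rhof and Cd59a. Runx1, a transcription factor of blood cell development, was at 3.35 and 3.45 CPM in control, 4.91 and 5.54 with TMAO, 9.03 and 7.94 with TNF-α, and 8.05 and 8.76 CPM with both. TMAO libraries were above control, while the combined libraries overlapped those of TNF-α, and the interaction was -0.63 ± 0.21 (interval -1.13 to -0.14). Lingo1, a membrane protein of neurons, was at 3.82 and 3.76 CPM in control, 4.91 and 4.74 with TMAO, 3.87 and 3.31 with TNF-α, and 2.55 and 2.59 CPM with both. The combined libraries were the lowest and the TMAO libraries the highest. The interaction of Lingo1 was -0.83 ± 0.23 (interval -1.38 to -0.29), and -0.94 without the 2 libraries. Klf2, an anti-inflammatory transcription factor, had -1.56 ± 0.52 (interval -2.80 to -0.32) at 0.46 to 2.25 CPM. Cd59a, an inhibitor of complement, had -0.77 ± 0.27 (interval -1.41 to -0.13), and -0.50 without the 2 libraries, with 17.9 CPM in TNF-α 16 against 12.1 in TNF-α 14. Faddos is antisense to Fadd, and reads of the 2 cannot be told apart unless counting used strand, which the sources used here do not give. H2-DMa belongs to a multigene family.

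Liver markers were present only in part. Of 19 albumin-family and secreted hepatocyte proteins 12 were tested, of 18 acute phase proteins 5, and the other members of these 2 lists had at most 5 and 9 counts in a library. Albumin (Alb) was at its lowest in a combined library at 347.0 CPM. Control cells had 1197 CPM of Alb on average, 1551 of the fetal liver protein Afp and 211.1 of the hepatocyte factor Hnf4a. Of 10 macrophage and leukocyte markers 4 were tested, with a summed level of 27.6 to 40.2 CPM, Cd3e was at 0 in every library, and Ptprc had at most 9 counts. Of 7 endothelial markers 4 were tested, at 1.47 to 2.41 CPM in sum. Of 8 stellate cell and fibroblast markers 3 were tested, at 1280 to 1810 CPM in sum, with Col3a1 at 0. Nearly all of that sum was Dcn, a matrix proteoglycan, at 1277 to 1805 CPM. Of 8 cholangiocyte markers 5 were tested, at 193 to 293 CPM in sum. In these 4 lists 0 genes had an interaction at p below 0.05, against 0.628% (positive) and 0.551% (negative) of all genes.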

How the data were processed

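Messenger RNA was selected with oligo beads from cells lysed in Trizol and sequenced as paired reads of 150 bases, per the labels' protocols. The authors deposited counts per Ensembl gene identifier, made with htseq per the file's name, and TPM values per gene symbol. The genome build was mm9 per the submitters' processing notes. No source used here names the aligner or the strand setting. Groups and the numbers 14 and 16 came from sample titles. Symbols came from GENCODE M21, an annotation of GRCm38, which matched 54409 of 54446 identifiers, 53229 of them with the same version number. The build behind the counts is therefore uncertain.

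Counts were fitted with edgeR 4.0.16 in R 4.3.3 (filterByExpr, TMM, robust quasi-likelihood, 4 group means, 4 residual degrees of freedom), with Benjamini-Hochberg adjustment over the 15613 genes tested at 0.05. CPM are counts per 1000000 after TMM scaling. SE and 95% intervals come from the fitted dispersion. Same-sign counts over the 16 choices of 1 library per group used log2 CPM with a prior count of 2. The deposited TPM entered only alternatives, as log2(TPM + 1) and log2(TPM + 0.1).

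Members and the 41 gene lists were chosen with earlier results of these data known. Named genes were any that passed the interaction test, the 12 of smallest p per direction with at least 1 CPM in a group and the same sign in all 16 choices, the 10 of smallest p for each averaged effect, the 2 of smallest p in each list and all members of 5 lists (NF-κB, chemokines, HIF targets, glycolysis and PERK-ATF4), leaving out unnamed predicted genes. Slc2a1, Slc16a1 and Pgk1 come under the last part, while Traf1, Tnfrsf1a, Icam1, Hif1a and marker genes were added as examples after their values were seen. In simulated data with 200 changed genes among 15294, the interaction test found 80.3% at a 4-fold change, 14.9% at 2-fold and 0% at 1.5-fold. False calls made up 3 of its 66. The simulated counts were drawn independently, with a gene's dispersion the same in all groups. They held no single library that departs in many genes at once, as TNF-α 16 does, so these rates do not describe the test on the real data. Alternatives comprised DESeq2 1.42.0, limma-voom and limma-trend (limma 3.58.1, the second for TPM), other scalings, other filters, a block for the replicate number, each library left out in turn, and TNF-α 16 and control 14 left out together.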

Additional observations from a re-analysis of the deposited data

How the results depend on the processing

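The count of genes with an interaction was 0 in every setting except 2: it ran from 0 to 5788 when each library was left out in turn, 5788 without TNF-α 14 and 0 without any other single library, and was 1 with TNF-α 16 and control 14 both left out. Genes called for TNF-α averaged over TMAO (1437) numbered 900 with log2(TPM + 1), 861 with log2(TPM + 0.1), 647 to 7444 when each library was left out and 5526 without both. The 7444 arose without TNF-α 14, and 4102 without TNF-α 16. Genes called for TMAO averaged over TNF-α (0) numbered 4 with DESeq2, 7 with no filter on low counts, 0 to 7308 when each library was left out (7308 without TNF-α 14, 9 without TNF-α 16) and 63 without both. The cause was not tested. Of 201 named genes 112 kept the sign of their interaction in every setting that gave them a value, and 89 did not. Some genes had a value in only 16 or 17 of the 18 settings. On the linear CPM scale 13 changed sign. The TPM settings moved the median interaction of all genes to 0.10 and 0.13, where it was -0.01 with counts, so a gene's value there is read against that shift. With the replicate number as a block 0 genes had an interaction, 1011 were called for TNF-α and 0 for TMAO, and all 201 named genes kept their sign. The numbers share no stated origin, and deviations of same-numbered libraries correlated at -0.64 for control with TNF-α and at -0.08 to 0.01 for the other pairs of groups. A count of 3 corresponds to 0.0984 to 0.121 CPM, so differences below that level were not detectable.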

Other observations

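Rn7sk, the 7SK small nuclear RNA that restrains transcription elongation, was at 92.5 CPM in TNF-α 16 and 95.3 CPM in the combined library 14, and at 0.57 to 3.43 CPM in the other 6 libraries, so the high value occurred in 1 library of each group that received TNF-α. It was chosen after its values were seen.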
